A study of Mus musculus with 2 samples.

Results

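The 8 genes described here encode C-type lectins of mouse phagocytes: Cd209a, Cd209b, Cd209d, Cd209e, Cd209f and Cd209g, the mouse relatives of human DC-SIGN, and Mgl2 and Clec10a, the macrophage galactose-type lectins. They were taken by symbol from the 32285 genes of the count tables, and each symbol stood for a single gene. CD209 proteins bind mannose- and fucose-bearing glycans on microbes and on other cells, and the Mgl proteins bind galactose or N-acetylgalactosamine. In mouse skin, Mgl2 protein (CD301b) is widely used to tell a subset of type 2 dendritic cells from other dendritic cells, and Cd209a transcripts are often used as a mark of type 2 dendritic cells or of monocyte-derived cells. Which of these paralogues is found in which phagocyte is the question addressed below.

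The cells were live CD45+ cells from wild-type C57BL/6 mice aged 15 days, isolated from skin by collagenase and read by droplet 3′ RNA sequencing. One group had received anti-Gr-1, an antibody against the Ly6G and Ly6C proteins of neutrophils and monocytes, and the other an isotype control antibody. Doses were given on alternate days, the first on day 4 and the last on day 14. Each group was 1 library made from 4 to 7 pooled mice, so no difference between them was tested, and every interval below covers counting error only. The anti-Gr-1 library held 85142470 unique molecular identifiers (UMIs, 1 per captured transcript) in 9110 barcodes, of which 7574 were kept, with a median of 7894 UMIs. The isotype control library held 125253392 UMIs in 21311 barcodes, of which 16487 were kept, with a median of 5073. The libraries shared 61 barcode sequences, 57 of them among kept anti-Gr-1 cells and 45 among kept isotype control cells.

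Cells were sorted into types by marker gates that used none of the 8 lectins. Levels are given as CPM, a scale on which all genes of a gate sum to the same total, meaning the UMIs of a gene summed over the cells of a gate and scaled to the summed UMIs of all genes in that gate. The type 2 dendritic gate (320 anti-Gr-1 and 552 isotype control cells) held Flt3, the receptor of a dendritic cell growth factor, at 165 and 224 CPM and H2-Ab1 at 11153 and 12181 CPM. Clec4a4, one of its 12 markers, had 1 UMI in that gate of the anti-Gr-1 library and none in the isotype control library. The type 1 dendritic gate (394 and 296 cells) held Xcr1 at 372 and 428 CPM, the mature dendritic gate (128 and 227) held Ccr7 at 1660 and 1944 CPM, and the Langerhans cell gate (61 and 108) held Cd207 at 2347 and 1982 CPM. A gate of phagocytes with Retnla, Lpl, Fn1 or Ear2 transcripts held 330 and 844 cells. The 12 type 2 dendritic markers summed to 1550.5 and 1744.2 CPM in the type 2 dendritic gate. In this gate of phagocytes they summed to 1730.6 and 1739.7 CPM, so the sum did not set these gates apart. Ear2 transcripts were also found in some cells of the type 2 dendritic gate, with values given beside Cd209b below.

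The resident macrophage gate (370 and 822 cells) went in part against its label. Its 116 anti-Gr-1 and 275 isotype control cells with fewer than 5 C1q UMIs held Flt3 at 234 and 249 CPM and H2-Ab1 at 13212 and 13615 CPM, and Lyve1 in only 2.59% and 2.91% of cells. They are therefore called C1q-low resident-gate cells and given apart from the 254 and 547 C1q-high resident macrophages, in which C1qa stood at 3043 and 2468 CPM and Flt3 at 6.0 and 10.5 CPM. In the C1q-low cells the 12 type 2 dendritic markers summed to 1945.5 and 1867 CPM, above the type 2 dendritic gate. The non-classical monocyte gate (78 and 144 cells) was divided in the same way at 5 UMIs of H2-Ab1, since its 40 and 68 cells above that limit held Flt3 at 233 and 258 CPM. Both divisions were made after the data had been seen. Free RNA was gauged in T cells (4148 and 7536), whose gate held 13.3 and 43.5 CPM of Mgl2, so that a low level in the isotype control library stands on a higher background than the same level in the anti-Gr-1 library. Clusters that mixed the genes of 2 cell types remained after doublet removal. Cluster 23 (44 anti-Gr-1 and 125 isotype control cells) was led by genes that included the T cell genes Ctla4 and Foxp3 and the type 2 dendritic marker Tnip3. It was left out of no setting. Clusters 5 and 37 had nearly all of their cells in the isotype control library. Cluster 5 (30 anti-Gr-1 and 1239 isotype control cells) was led by Retnla, Mmp12 and the T cell genes Trat1 and Xcl1, and cluster 37 (1 and 527 cells) by mast cell genes with Ccl7 and Retnla. They gave 75 and 15 of the 844 isotype control cells of the Retnla Lpl Fn1 gate, 11 and 2 of the 552 of the type 2 dendritic gate, and 430 and 140 of the 7536 of the T cell gate. Without these cells the T cell gate held 13.3 and 37.7 CPM of Mgl2.

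The CD209 genes lie together on chromosome 8. With Cd209c, which is not among the 8, they span 394 kb of mm10, from Cd209a (chr8:3743397-3748984, minus strand) to Cd209g (chr8:4134098-4137707, plus strand). Between them lie Cd209e (chr8:3847965-3854309), Cd209d (chr8:3871824-3878555), Cd209b (chr8:3917655-3926844) and Cd209f (chr8:4102787-4105835), all on the minus strand. Mgl2 (chr11:70130329-70137550) and Clec10a (chr11:70156197-70170834) are neighbours on the plus strand of chromosome 11, 18.6 kb apart. All 9 genes are annotated as protein coding in GENCODE M21. None of the CD209 genes shared a 50-base word between the last 500 bases of its longest transcript and any transcript of the others, so their 3′ reads can be told apart. Of the same words of Clec10a, 92 of 451 also occur in Mgl2, so some reads of Clec10a could be ambiguous, whereas none of the last 500 bases of Mgl2 did so.

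RefSeq promoters (GRCm38.p6, 250 bases before to 50 after the start site) were at hand for 7 of the 8 genes, all but Clec10a. Cd209f and Cd209g, the pair that was found in the same macrophages below, are the 2 promoters to compare: they share an unbroken run of 180 identical bases, in capitals here, and align at 80.9% identity. The other 27 pairs among the 8 promoters at hand (Cd209c included) align at 41.2% to 56.1%, with no shared run over 17 bases. The first is the minus strand of chr8:4105715-4106014 and the second the plus strand of chr8:4134486-4134785.
Cd209f: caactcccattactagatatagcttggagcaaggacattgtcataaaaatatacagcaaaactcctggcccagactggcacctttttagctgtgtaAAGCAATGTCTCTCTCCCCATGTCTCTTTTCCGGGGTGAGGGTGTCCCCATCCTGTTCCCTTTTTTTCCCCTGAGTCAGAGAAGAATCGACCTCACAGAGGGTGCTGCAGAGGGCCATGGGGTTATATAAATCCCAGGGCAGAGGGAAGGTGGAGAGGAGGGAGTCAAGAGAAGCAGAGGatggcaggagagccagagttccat
Cd209g: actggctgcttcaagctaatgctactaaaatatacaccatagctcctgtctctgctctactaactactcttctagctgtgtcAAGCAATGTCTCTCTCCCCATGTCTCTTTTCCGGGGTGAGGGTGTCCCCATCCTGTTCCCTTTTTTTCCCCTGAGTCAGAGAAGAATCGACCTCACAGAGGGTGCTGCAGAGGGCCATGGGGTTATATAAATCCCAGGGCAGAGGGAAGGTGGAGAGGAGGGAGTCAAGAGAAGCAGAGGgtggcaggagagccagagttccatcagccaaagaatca

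Cd209a and Cd209e, both high in the type 2 dendritic gate below, are shown for contrast, with the ETS core in capitals. The ETS core was searched here as CCGGAA on either strand, which holds GGAA, the letters bound by the ETS family of factors. The myeloid factor PU.1 belongs to this family, and a PU.1-type site was searched for separately. The promoters of Cd209a and Cd209e are the minus strands of chr8:3748935-3749234 and chr8:3854237-3854536.
Cd209a: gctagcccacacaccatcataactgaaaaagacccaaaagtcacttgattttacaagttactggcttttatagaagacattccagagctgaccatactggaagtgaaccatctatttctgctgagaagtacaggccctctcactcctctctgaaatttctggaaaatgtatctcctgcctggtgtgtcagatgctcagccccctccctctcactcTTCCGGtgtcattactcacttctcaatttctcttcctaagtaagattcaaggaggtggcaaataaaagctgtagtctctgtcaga
Cd209e: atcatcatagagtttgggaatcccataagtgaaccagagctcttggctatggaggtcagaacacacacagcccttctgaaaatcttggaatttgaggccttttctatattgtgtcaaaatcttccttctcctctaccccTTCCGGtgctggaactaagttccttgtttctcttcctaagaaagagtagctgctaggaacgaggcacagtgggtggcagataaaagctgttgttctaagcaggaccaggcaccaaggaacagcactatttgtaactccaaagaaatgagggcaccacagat

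The core was found in 5 of the 7 promoters (Cd209a, Cd209b, Cd209e, Cd209f and Cd209g) and in 14.9% of 32851 mouse promoters of the same length. The letters TATAAA, on either strand, were found in 3 of the 7 (Cd209a, Cd209f and Cd209g) and in 13.6% of all. GAGGAAGT, a PU.1-type site that shares the letters GGAA with the core, was found in none of the 7 on either strand and in 3.20% of all. In Cd209f and Cd209g the core and TATAAA both lie within their shared run, so the matches of this pair are not separate. A match describes these letters in this window only.

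In the type 2 dendritic gate, 3 CD209 genes stood at high levels together with Mgl2, in both libraries. Cd209d, whose product is also called SIGNR3, was the highest of the CD209 genes by UMIs, with 1859 CPM (interval 1819 to 1900) in the anti-Gr-1 library and 1816 (1778 to 1854) in the isotype control library. Cd209a, the mouse gene that most often carries the name DC-SIGN, had 1032 CPM (1002 to 1062) and 957 CPM (929 to 985). Cd209e had 587 CPM (564 to 610) and 607 CPM (585 to 629). Mgl2 had 1706 CPM (1668 to 1745) and 1850 CPM (1812 to 1889). Clec10a was lower there, with 280 CPM and 249 CPM. Since these counts come from 3′ ends they are set side by side within a gene, and the order among genes is one of UMIs, not of a level per length.

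**Figure D1:**
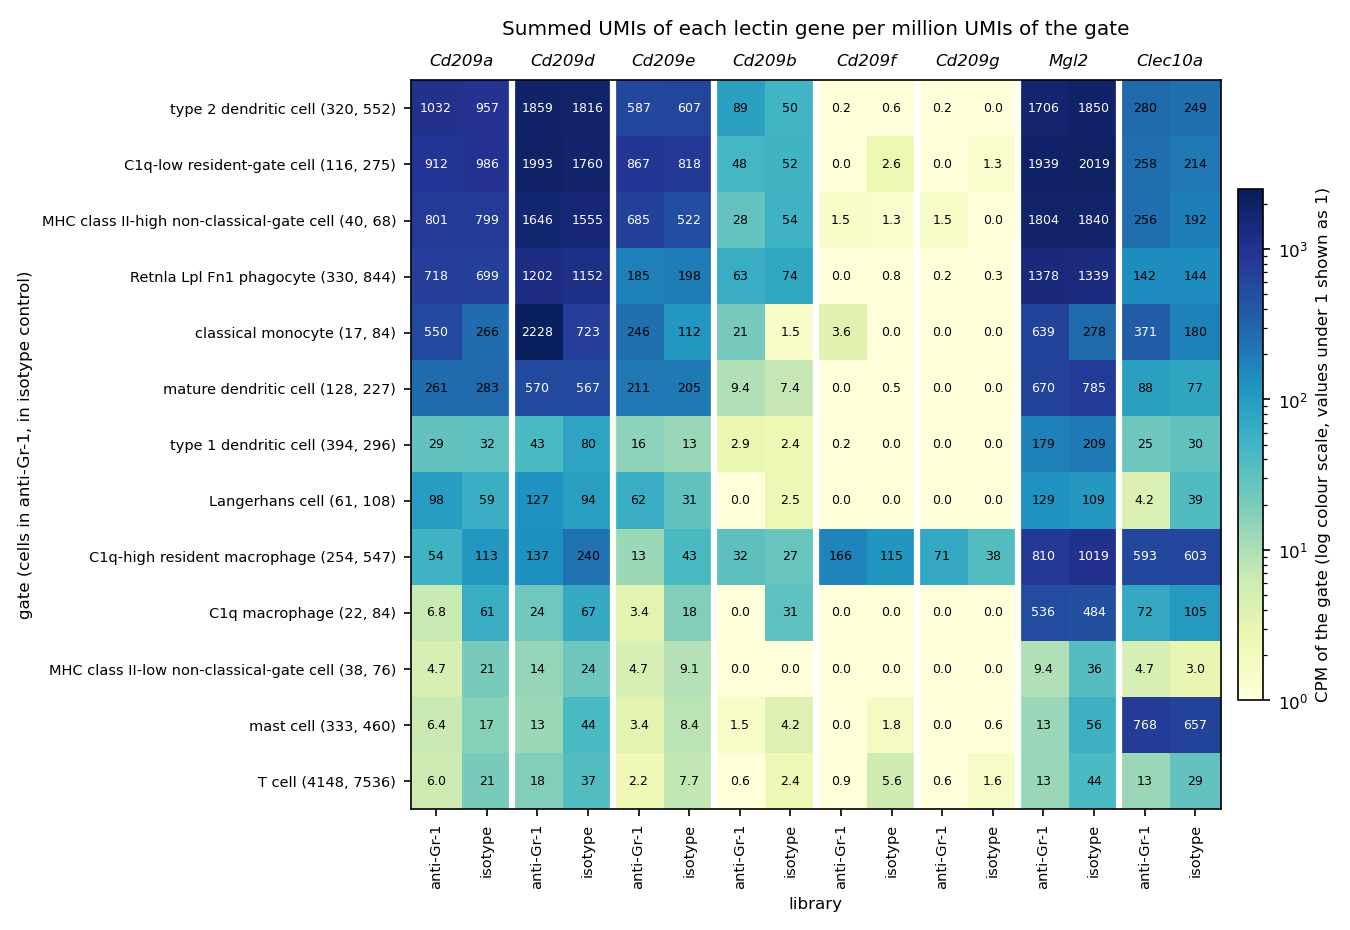
Heat map of the level of each lectin gene (columns, anti-Gr-1 library left of isotype control library) in each gate (rows, with the number of cells in each library), as CPM of the gate on a log colour scale. Cd209a, Cd209d and Mgl2 are high in the upper 4 rows, and Cd209e in these rows apart from the Retnla Lpl Fn1 phagocytes. Cd209d is also high in the 17 classical monocytes of the anti-Gr-1 library. Cd209f and Cd209g are high in the C1q-high resident macrophages, and Clec10a in those macrophages and in mast cells.

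These were levels of most cells and not of a few. A UMI of Cd209d was found in 93.1% of anti-Gr-1 and 89.1% of isotype control type 2 dendritic cells, and with every cell thinned to 2000 UMIs in 83.4% and 80.7%. The same thinned share in T cells, which should lack the gene, was 2.27% and 5.09%, at median depths before thinning of 6836 UMIs in T cells against 13648 in the type 2 gate for anti-Gr-1, and 4709 against 9071 for isotype control. The median type 2 dendritic cell held 23 UMIs of Cd209d in the anti-Gr-1 library and 11.5 in the isotype control library, and the highest cell 158 and 97. Cells with both Cd209a and Cd209d made up 65.6% (60.1 to 70.8) and 65.2% (60.8 to 69.3) of thinned cells, against 62.3% and 60.4% if the genes had been found independently. Cd209d and Mgl2 were found together in 75.3% and 75.6% of thinned cells.

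The C1q-low resident-gate cells held the same genes at similar levels, apart from Cd209e and Cd209b. They held Cd209d at 1993 and 1760 CPM, Cd209a at 912 and 986 CPM, Cd209e at 867 and 818 CPM, Mgl2 at 1939 and 2019 CPM, and Clec10a at 258 and 214 CPM. In the isotype control library the order of these groups could not be told from counting error for Cd209a, with a ratio of 1.03 (0.980 to 1.08) of C1q-low cells over type 2 dendritic cells, nor for Cd209d, with 1.03 (0.994 to 1.07) of type 2 cells over C1q-low cells. Cd209e was higher in C1q-low cells by 1.48 times (1.39 to 1.57) in the anti-Gr-1 library and 1.35 times (1.27 to 1.43) in the isotype control library. Cd209b stood at 47.9 and 52.3 CPM in C1q-low cells, against 89.3 and 50.3 CPM in the type 2 gate. The H2-Ab1-high cells of the non-classical gate (40 and 68) were close too, with Cd209d at 1646 and 1555 CPM.

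A gene was said to mark a gate where its CPM was at least 4 times the median over the other phagocyte gates of 50 cells or more, with at least 20 UMIs. With the gates as first defined, 1 of the 8 genes, Cd209b, marked the type 2 dendritic gate in the anti-Gr-1 library, where 0.229% of the genes with enough UMIs did so, and none did in the isotype control library, where 0.624% did. With the resident and non-classical gates divided, 4 genes did in the anti-Gr-1 library (Cd209a, Cd209b, Cd209d and Cd209e; 0.654% of genes) and 3 in the isotype control library (Cd209a, Cd209d and Cd209e; 0.964% of genes). Over the median of the other gates, Cd209a then stood 5.74 times higher in the anti-Gr-1 library and 5.05 times in the isotype control library, Cd209d 5.26 and 4.50 times, and Cd209e 4.74 and 7.82 times. Fewer gates held 50 cells in the anti-Gr-1 library, so the medians rest on unlike sets of gates. For Cd209e the median was 124 and 77.6 CPM, so such folds are not compared between libraries. Cd209a, Cd209d and Cd209e also marked the C1q-low resident-gate cells in both libraries, against 1.24% and 1.07% of genes. Mgl2 marked no gate under either definition, since it was above 100 CPM in every gate of dendritic cells, resident macrophages and Retnla Lpl Fn1 phagocytes.

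No member marked any of the remaining gates as first defined. The share of genes that did was 2.97% in the anti-Gr-1 library and 3.1% in the isotype control library for type 1 dendritic cells, 4.3% and 4.41% for mature dendritic cells, 7.44% and 6.75% for Langerhans cells, and 2.47% and 2.28% for the non-classical gate. In the isotype control library, which alone had 50 cells in them, it was 3.56% for C1q macrophages and 2.87% for classical monocytes. With divided gates there was again none in type 1 dendritic cells (2.95% and 3.21%), mature dendritic cells (4.72% and 4.69%), Langerhans cells (7.72% and 6.81%), or, in the isotype control library, C1q macrophages (4.1%), classical monocytes (3.12%) and the H2-Ab1-low cells of the non-classical gate (9.08%). The H2-Ab1-high cells of the non-classical gate were marked by Cd209a and Cd209e in that library, against 0.814% of genes.

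The paralogues differed between clusters that all carried type 2 dendritic markers. In a clustering of all kept cells from which the 8 genes were left out, 4 clusters that scored highest for those markers are described here. Cluster 23 scored highest for them too, but it is not described because it mixed them with T cell genes. Cluster 26 (390 anti-Gr-1 and 1012 isotype control cells), called type 2 dendritic-like, had Flt3 and Timd4, a phosphatidylserine receptor, among its first 10 genes, with Flt3 at 326 and 345 CPM. Cluster 8 (490 and 976 cells) was led by Mmp12, a macrophage elastase, and Ear2, an eosinophil-type ribonuclease, with the scavenger receptor Cd163 among its first 10 genes, and it is given by its number alone. Its Flt3 was only 59.4 and 64.3 CPM, and its Ear2, at 1261 and 1308 CPM, was near the 1246 and 1381 CPM of cluster 10, a Retnla Lpl Fn1 phagocyte-like cluster in which Flt3 stood at 2.57 and 9.57 CPM. H2-Ab1 stood at 9872 and 9989 CPM in cluster 8, 13662 and 14380 CPM in cluster 26, and 6233 and 6376 CPM in cluster 10. Cd209b, whose product SIGNR1 takes up bacterial polysaccharides in the spleen, stood at 127 CPM (interval 119 to 135) in cluster 8 of the anti-Gr-1 library and 135 (127 to 142) in that of the isotype control library, against 10.5 and 8.94 CPM in cluster 26. Cd209e went the other way, with 486 and 485 CPM in cluster 8 against 884 and 841 CPM in cluster 26. Cd209a was higher in cluster 8, at 1227 and 1287 CPM, than in cluster 26, at 755 and 768 CPM, while Cd209d differed little, with 1957 and 1977 CPM against 1946 and 1832 CPM. Cluster 8 over cluster 26 gave a ratio of 12.1 (9.38 to 15.9) for Cd209b in the anti-Gr-1 library and 15.1 (12.2 to 18.8) in the isotype control library, and a ratio of 0.550 (0.527 to 0.574) and 0.576 (0.556 to 0.597) for Cd209e. A UMI of Cd209b was found in 50.4% and 40.6% of the cells of cluster 8 and in 7.95% and 5.73% of those of cluster 26.

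Cluster 9 (41 anti-Gr-1 and 57 isotype control cells) was led by Ifitm3, Tnip3, Ms4a4c and Plac8. Plac8, a marker of the classical monocyte gate, was found in 34.1% of its anti-Gr-1 cells. Ly6c2, which that gate requires, was found in 2.44% of them. Cluster 9 held Clec10a at 560 and 415 CPM, above the 188 and 154 CPM of cluster 8 and the 275 and 234 CPM of cluster 26. Cd209a was at 760 and 1035 CPM there, Cd209e at only 60.3 and 48.3 CPM, and Cd209b at 0 CPM in the anti-Gr-1 library (upper bound 6.36) and 13.3 CPM in the isotype control library. Cluster 34 (81 and 384 cells) was led by histone and other cell division genes. It held Cd209d at 1007 and 1000 CPM, Cd209a at 658 and 588 CPM, Cd209e at 158 and 173 CPM, Cd209b at 14.1 and 11.4 CPM, and Clec10a at 199 and 178 CPM. Of these 4 clusters, cluster 8 had the most Cd209b and the lowest Clec10a value, in each library.

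**Figure D2:**
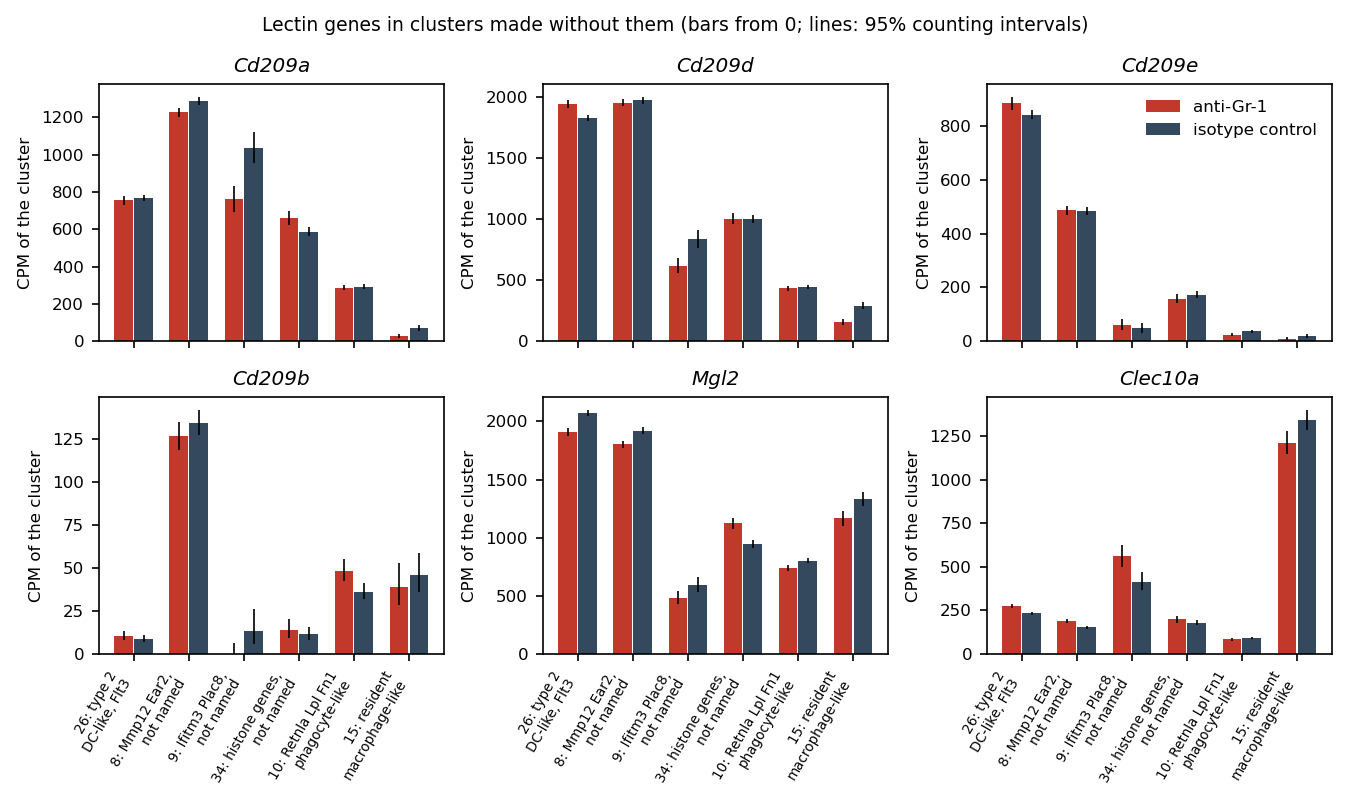
Level of 6 lectin genes in 6 clusters made without them, as CPM of the cluster from 0, with 95% Poisson intervals; anti-Gr-1 bars stand left of isotype control bars. Cd209b is highest in cluster 8 at 127 and 135 CPM, Cd209e in cluster 26 at 884 and 841 CPM, and Clec10a in cluster 15 at 1211 and 1342 CPM.

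Retnla Lpl Fn1 phagocytes carried the same genes, all but Cd209b at lower levels than type 2 dendritic cells in both libraries. Cd209d had 1202 and 1152 CPM, Cd209a 718 and 699 CPM, Mgl2 1378 and 1339 CPM, Cd209e 185 and 198 CPM, and Clec10a 142 and 144 CPM. Cd209b had 63.3 CPM (56.5 to 70.7) in the anti-Gr-1 library and 74.0 CPM (67.6 to 80.9) in the isotype control library. The type 2 dendritic gate was the higher for Cd209b in the anti-Gr-1 library, by 1.41 times (1.21 to 1.64), and the Retnla Lpl Fn1 gate in the isotype control library, by 1.47 times (1.26 to 1.72). With the gates as first defined, Cd209b marked this gate in the anti-Gr-1 library (1 of 8 genes; 1.88% of genes did) and no member did in the isotype control library (1.52%). With divided gates it did so in the isotype control library, at 4.30 times the median of the other gates, where 1.64% of genes did, and not in the anti-Gr-1 library, where 2.16% did. This gate is broad: Ear2 was found in 95.8% and 83.6% of its cells, and its H2-Ab1 level was 7994 and 8158 CPM. Without the cells of clusters 5 and 37, again 1 and 0 members marked the gate as first defined. In cluster 10 (268 and 557 cells), led by Retnla, Lpl and Fn1, levels were lower than in the gate, with Cd209a at 288 and 292 CPM, Cd209d at 435 and 442 CPM, Cd209e at 24.5 and 36.4 CPM, and Cd209b at 48.5 and 36.4 CPM.

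Type 1 dendritic cells, which present antigen of dead cells, held little of any CD209 gene. Cd209a had 29.2 and 31.6 CPM, Cd209e 15.6 and 13.3 CPM, and Cd209b 2.90 and 2.36 CPM. Cd209d had 43.1 CPM in the anti-Gr-1 library and 80.4 CPM in the isotype control library, and single cells held up to 66 of its 282 and 64 of its 272 UMIs. Mgl2, at 179 and 209 CPM, was the clearest lectin of these 8 in the gate, found in 23.5% and 25.2% of thinned cells against 2.17% and 5.47% of thinned T cells.

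Mature dendritic cells, which carry Ccr7 for migration to lymph nodes, held Mgl2 at 670 and 785 CPM, Cd209d at 570 and 567 CPM, Cd209a at 261 and 283 CPM, and Cd209e at 211 and 205 CPM. These were shared unevenly among the cells. Mgl2 was found in 40.6% of anti-Gr-1 and 42.3% of isotype control cells, and the highest cells held 92 and 66 UMIs, while the median cell held 0.

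Langerhans cells of the epidermis were low in all 8. Mgl2 stood at 129 and 109 CPM and was found in 4.92% and 12.0% of thinned cells. Cd209d was found in 4.92% and 14.0%, and in the anti-Gr-1 library 51 of its 90 UMIs came from a single cell. Clec10a had 3 UMIs in 61 cells and 32 UMIs in 108 cells, or 4.25 and 39.2 CPM, and 21 of the 32 came from 1 cell. Cd209f and Cd209g had no UMI in either library.

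Monocytes differed by class. The H2-Ab1-low cells of the non-classical gate (38 and 76) went against their label in the anti-Gr-1 library, where 6 neutrophil markers summed to 1740 CPM and 3 basophil markers to 1462 CPM, beside Ace at 245 CPM. In the isotype control library those sums were 230 and 188 CPM, beside Ace at 560 CPM. These cells had no member clearly above the T cell level: Mgl2 stood at 9.43 and 36.3 CPM, Cd209a at 4.72 and 21.2 CPM, Cd209d at 14.2 and 24.2 CPM, and Cd209b, Cd209f and Cd209g had no UMI in either library. The classical monocyte gate held too few anti-Gr-1 cells for a comparison, 17 against 84. Its cells held Cd209d at 2228 and 723 CPM, Cd209a at 550 and 266 CPM, and Clec10a at 371 and 180 CPM. The level rested on part of the cells, since the median cell held 24 UMIs of Cd209d in the anti-Gr-1 library and 0 in the isotype control library, where 29.8% of cells had one. Flt3 stood at 211 and 106 CPM in this gate, beside Ly6c2 at 514 and 905 CPM, and its part in the lectin levels was not tested.

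Cd209f and Cd209g were restricted among the phagocyte gates to resident macrophages, and this held in both libraries. In C1q-high resident macrophages Cd209f had 166 CPM (interval 151 to 182; 446 UMIs) in the anti-Gr-1 library and 115 CPM (105 to 127; 427 UMIs) in the isotype control library. Cd209g had 71.4 CPM (61.7 to 82.3; 192 UMIs) and 37.8 CPM (31.8 to 44.7; 140 UMIs). In type 2 dendritic cells, among 4423196 and 4833602 UMIs of all genes, Cd209f had 1 and 3 UMIs, and Cd209g 1 and none. The next highest gate of 50 cells or more for Cd209f in the isotype control library was the C1q-low resident-gate cells with 6 UMIs, and the ratio of C1q-high cells over it was 44.5 (20.3 to 122). For Cd209g the same ratio, on 3 UMIs, was 29.2 (9.78 to 143). With the gates as first defined, Cd209f and Cd209g were the 2 of 8 members that marked the resident macrophage gate in both libraries, where 4.77% of genes in the anti-Gr-1 library and 3.6% in the isotype control library did so.

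Neither gene was found in most of these macrophages. A UMI of Cd209f was present in 22.05% of anti-Gr-1 and 17.18% of isotype control C1q-high cells, and after thinning in 14.4% and 11.8%, against 0.0489% and 0.473% of thinned T cells. Cd209g was present in 9.20% and 4.58% of thinned cells. Both genes were found together in 7.20% (4.32 to 11.1) and 3.19% (1.83 to 5.12) of thinned cells, against 1.32% and 0.538% if they had been found independently. The highest cell held 42 and 24 UMIs of Cd209f. These are the genes whose promoters share the run of 180 bases.

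Within the C1q-high macrophages, cells with a UMI of Lyve1, the hyaluronan receptor of perivascular tissue macrophages, had the higher levels of both. Cd209f stood at 438 CPM (389 to 491) in the 60 such anti-Gr-1 cells and at 309 CPM (268 to 354) in the 99 such isotype control cells, against 76.6 and 72.4 CPM in the 194 and 448 cells without one. Cd209g stood at 184 and 120 CPM in cells with Lyve1, against 34.6 and 19.5 CPM in cells without. Clec10a followed them, with 1123 and 1297 CPM against 418 and 448 CPM. Mgl2 did so in the anti-Gr-1 library, with 1179 CPM (1098 to 1264) against 689 CPM (653 to 726), and in the isotype control library the intervals overlapped, with 1037 CPM (962 to 1117) against 1015 CPM (979 to 1051). Cd209a went the other way, with 16.6 and 55.0 CPM in cells with Lyve1 against 65.7 and 126 CPM in cells without, as did H2-Ab1, with 304 and 1085 CPM against 3276 and 3915 CPM. The median depth of cells with and without a Lyve1 UMI was similar, at 10342.5 and 9441.5 UMIs in the anti-Gr-1 library and 6339 and 6239.5 in the isotype control library.

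**Figure D3:**
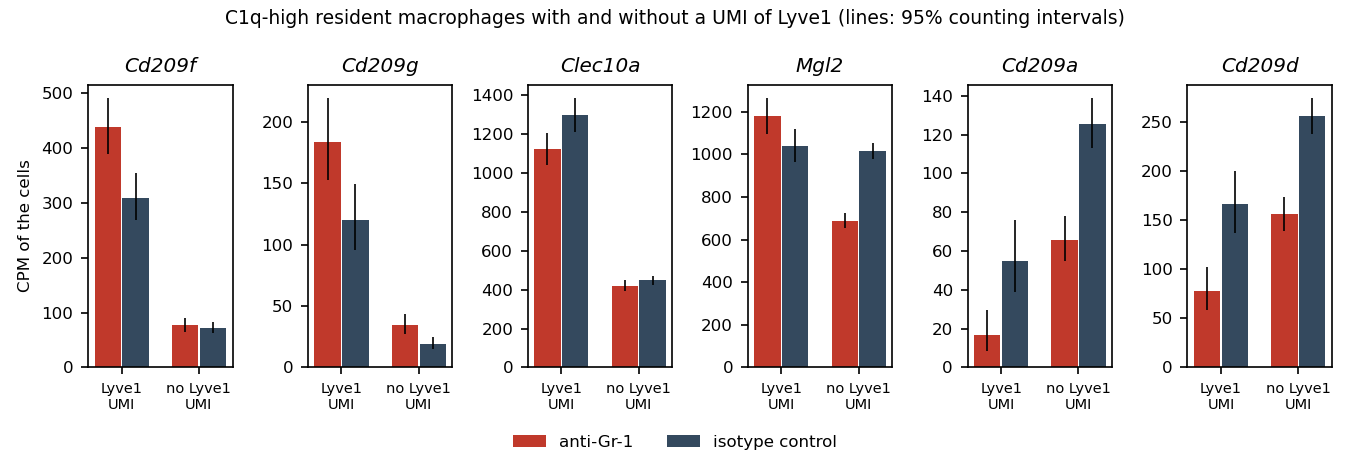
Level of 6 lectin genes in C1q-high resident macrophages with a UMI of Lyve1 (60 anti-Gr-1 and 99 isotype control cells) and without one (194 and 448 cells), as CPM from 0, with 95% Poisson intervals. Cd209f, Cd209g and Clec10a are higher in cells with Lyve1 in both libraries, and Cd209a and Cd209d are lower.

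Among the clusters too, both genes were highest in a resident macrophage-like cluster, but a C1q macrophage-like cluster also held them at lower levels. Cluster 15, a resident macrophage-like cluster of 109 anti-Gr-1 and 232 isotype control cells led by Ccl8, Pf4, the C1q genes, Folr2 and Lyve1, held Cd209f at 416 and 387 CPM and Cd209g at 153 and 114 CPM. Cluster 22, a C1q macrophage-like cluster of 192 and 832 cells, held Cd209f at 29.5 and 35.8 CPM, and Cd209g on only 46 and 52 UMIs. In T cell clusters Cd209f was at 0.122 and 0.551 CPM, below the 0.905 and 5.56 CPM of the T cell gate, in which a single cell held up to 19 and 36 UMIs of the gene. The highest cell of the T cell clusters held 1 UMI of it in each library. The C1q macrophage gate, of 22 and 84 cells with C1q but fewer than 3 resident markers, had no UMI of Cd209f or Cd209g, while it held Mgl2 at 536 and 484 CPM.

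Clec10a was highest in the resident macrophages among the phagocytes, in contrast to its neighbour Mgl2. In C1q-high cells it had 593 CPM (564 to 622) in the anti-Gr-1 library and 603 CPM (578 to 628) in the isotype control library, 2.12 times (1.96 to 2.28) and 2.42 times (2.26 to 2.60) the level in type 2 dendritic cells. It marked the C1q-high cells at 5.14 and 4.85 times the median of the other gates, where 7.4% and 5.69% of genes did. With the gates as first defined it did not pass. Mgl2 in the same cells had 810 and 1019 CPM, below its level in type 2 dendritic cells. The pair was found together in 46.0% and 42.8% of thinned C1q-high cells, against 40.6% and 40.8% if independent. In cluster 15 Clec10a reached 1211 and 1342 CPM, and Mgl2 1168 and 1332 CPM.

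Clec10a was also found outside the phagocytes, so the naming of these lectins after phagocytes does not cover it. In mast cells, gated after the data were seen by at least 20 UMIs of Cma1, Mcpt4, Tpsb2 and Cpa3 together, with at most 1 UMI of lymphoid genes and fewer than 5 of H2-Ab1, Clec10a had 768 CPM (730 to 807) in the anti-Gr-1 library, on 1559 UMIs in 333 cells, and 657 CPM (619 to 697) in the isotype control library, on 1098 UMIs in 460 cells. It was found in 73.6% and 57.4% of these cells, and in 60.3% and 54.5% after thinning, against 1.15% and 2.72% of thinned T cells. Mgl2 stood at 13.3 and 56.2 CPM in mast cells, near the 13.3 and 43.5 CPM of T cells, and Cd209a at 6.40 and 16.7 CPM. The 9 resident macrophage markers summed to 26.6 and 190 CPM in the mast cell gate, against 9854 and 9691 CPM in C1q-high macrophages, with 2 and 0 of the 9 at 0. Only 2.50% and 2.82% of thinned mast cells held Mgl2 and Clec10a together, against 2.07% and 3.59% if independent. The mast cell cluster, 13, gave 719 and 617 CPM of Clec10a.

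**Figure D4:**
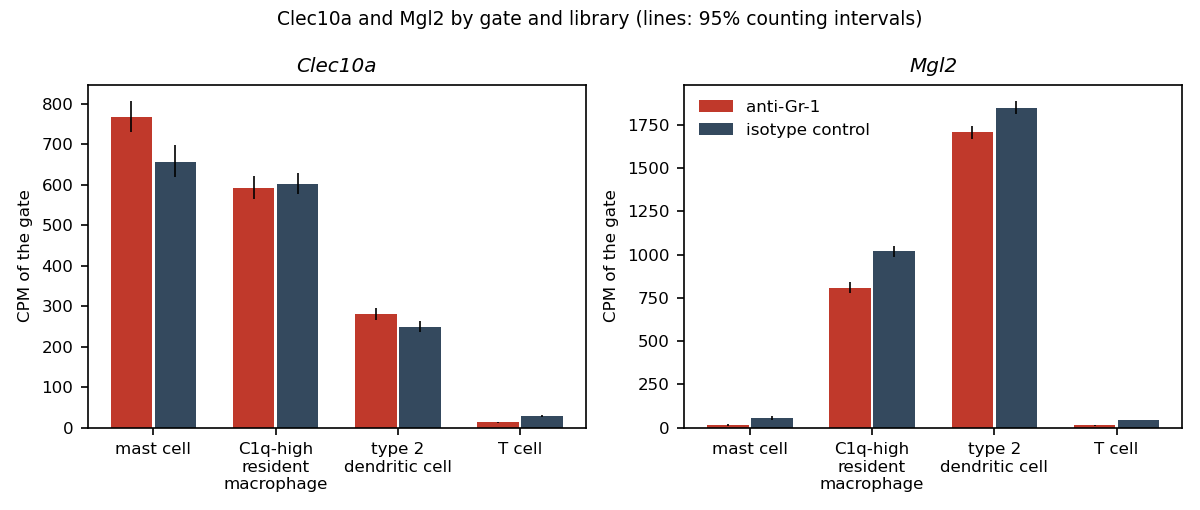
Level of Clec10a and Mgl2 in mast cells, C1q-high resident macrophages, type 2 dendritic cells and T cells, as CPM of the gate from 0, with 95% Poisson intervals; anti-Gr-1 bars stand left of isotype control bars. In mast cells Clec10a is at 768 and 657 CPM while Mgl2 is near its level in T cells.

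Between the libraries, most members differed little within a gate. A member was called where it was past 2-fold on the log2(CPM + 5) scale with at least 20 UMIs over both libraries. No member was called in the type 2 dendritic gate, where 0.0197% of 10137 genes were called higher and 0.296% lower in the anti-Gr-1 library, nor in the Retnla Lpl Fn1 gate (0.0849% higher, 0.604% lower) or the resident gate as first defined (0.0828% higher, 0.147% lower). The type 1 dendritic gate (0.0707% and 0.131%), the mature dendritic gate (0.44% and 0.587%) the non-classical gate (1.25% and 2.06%) and the C1q-low resident-gate cells (0.173% and 0.863%) had none either. In the Langerhans cell gate Clec10a alone was called, as lower under anti-Gr-1, on the 3 and 32 UMIs given above, where 2.09% of genes were lower and 0.948% higher. Some ratios far from 1 were not called. In that gate Cd209e had 2.03 (1.22 to 3.47), on 44 and 25 UMIs, and Cd209a 1.66 (1.13 to 2.45). Cd209d in the type 1 dendritic gate had 0.536 (0.452 to 0.636). In the type 2 dendritic gate the ratio of anti-Gr-1 over isotype control was 1.08 (1.03 to 1.12) for Cd209a, 1.02 (0.993 to 1.06) for Cd209d, 0.967 (0.916 to 1.02) for Cd209e, 0.922 (0.894 to 0.951) for Mgl2 and 1.13 (1.04 to 1.22) for Clec10a.

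Cd209b was the member of the type 2 dendritic gate that differed most. It had 89.3 CPM (80.7 to 98.6; 395 UMIs) in the anti-Gr-1 library and 50.3 CPM (44.2 to 57.0; 243 UMIs) in the isotype control library, a ratio of 1.78 (1.51 to 2.09). Ear2, a leading gene of cluster 8, moved with it in the gate, with 660 and 415 CPM, found in 50% and 33.9% of cells. Within cluster 8 Cd209b did not differ in that direction, at 127 and 135 CPM. Cluster 8 held more Cd209b than any other cluster, so leaving it out lowers the level of its class by construction. With clusters in place of gates and without cluster 8, Cd209b in the type 2 dendritic class was below that of another class. The log2 ratio of these classes, within the anti-Gr-1 library, was -1.75. The part of cluster 8 or of cells with Ear2 in the difference between the libraries was not tested. In the Retnla Lpl Fn1 gate the ratio of Cd209b between the libraries was 0.856 (0.740 to 0.988).

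In C1q-high resident macrophages the members differed in both directions. The 3 genes high in type 2 dendritic cells stood below isotype control: Cd209e had 12.6 CPM against 43.3 CPM in isotype control, a ratio of 0.292 (0.196 to 0.425), Cd209a 53.6 against 113 CPM, a ratio of 0.475 (0.390 to 0.576), and Cd209d 137 against 240 CPM, a ratio of 0.571 (0.504 to 0.645). Cd209a and Cd209e were past 2-fold, where 0.418% of genes were lower and 0.0895% higher. The 2 resident genes were higher, with a ratio of 1.44 (1.26 to 1.64) for Cd209f and 1.89 (1.51 to 2.36) for Cd209g. Mgl2 had a ratio of 0.795 (0.754 to 0.838), Clec10a of 0.983 (0.922 to 1.05) and Cd209b of 1.20 (0.888 to 1.61).

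Other values of these cells moved with those differences. Lyve1, with 373 and 209 CPM, was found in 23.6% of anti-Gr-1 and 18.1% of isotype control C1q-high cells, H2-Ab1 stood at 2542 and 3400 CPM, and the 12 type 2 dendritic markers summed to 757 and 887 CPM, with 1 and 0 of them at 0. The T cell gate held Cd209a at 5.98 and 20.96 CPM, Cd209d at 18.0 and 37.1 CPM and Cd209e at 2.23 and 7.74 CPM. Their part in the lectin differences was not tested. In cluster 15 the values were 27.1 and 70.1 CPM for Cd209a, 156 and 290 CPM for Cd209d, 9.35 and 18.4 CPM for Cd209e, and, for the resident pair, 416 and 387 CPM for Cd209f and 153 and 114 CPM for Cd209g.

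**Figure D5:**
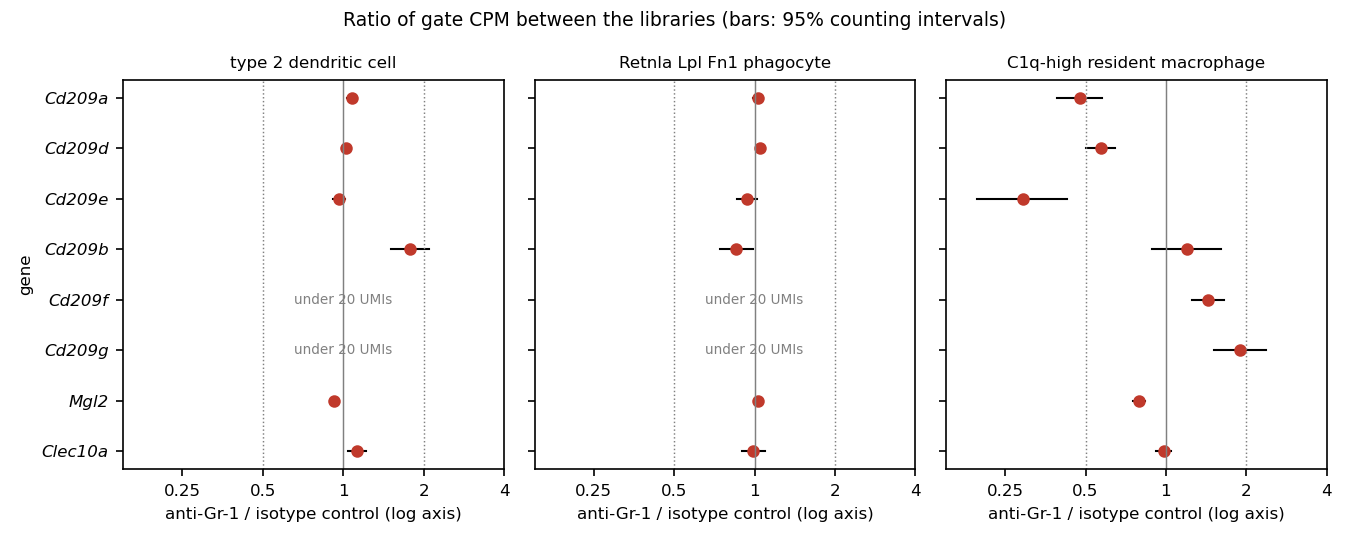
Ratio of CPM in the anti-Gr-1 library over the isotype control library for each lectin gene in 3 gates, on a log axis, with 95% exact conditional intervals; dotted lines mark 0.5 and 2. Ratios lie near 1 in type 2 dendritic cells, apart from Cd209b at 1.78, and in Retnla Lpl Fn1 phagocytes, and run from 0.292 for Cd209e to 1.89 for Cd209g in C1q-high resident macrophages.

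Ratios of the resident pair were also taken within each sex; the difference between the sexes was not tested. By Xist and 4 Y-linked genes, the resident gate held 83 female and 209 male anti-Gr-1 cells and 287 female and 308 male isotype control cells. The ratio of anti-Gr-1 over isotype control for Cd209g was 8.11 (4.81 to 14.3) in female cells and 0.821 (0.590 to 1.14) in male cells. For Cd209f it was 3.01 (2.38 to 3.80) and 1.08 (0.875 to 1.35). Cd209b in the type 2 dendritic gate had a ratio of 1.11 (0.830 to 1.49) in female cells and 2.23 (1.74 to 2.88) in male cells. How many of the pooled mice gave the cells of each sex is not given in the sources used here, so sex and single animals cannot be told apart.

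Genes with the most similar pattern were sought over 14 points, the 7 gates of 50 cells or more in each of the 2 libraries, by Pearson's r of log2(CPM + 5) among 10677 genes. The points of a library share its depth and its free RNA, and r is a description. The closest gene to Cd209a was Cd209d (r = 0.991), followed by Csrnp1, a nuclear protein (0.983), and Cd209c (0.981). Cd209d was closest to Cd209a, then Csrnp1 and Kdm6b, a histone demethylase (0.979). Cd209f and Cd209g were each among the other's first 5 (0.995), next to Gm4951, Ms4a14 and Pdgfc, a growth factor. Outside the resident gate both were at 1.13 CPM or less at these points. Their r therefore mostly restates that both were found in that gate. Cd209b was closest to Batf, a transcription factor (0.973), Cd209e to Celf4, an RNA-binding protein (0.978), Mgl2 to Gm15987 (0.985) and Clec10a to Gm38843 (0.951).

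Of 30 other C-type lectins, 27 were in the files, and few differed between the libraries. In type 2 dendritic cells 18 had at least 20 UMIs, of which none was 2-fold higher and 1 lower in the anti-Gr-1 library, against 0.0197% and 0.296% of all genes, and the median log2 ratio was 0.03, against -0.07 over all genes. The one was Clec4e, a receptor for mycobacterial glycolipid, with 11.3 and 28.1 CPM. The highest of the list there were Mrc1, the mannose receptor, at 416 and 399 CPM, Clec4a2 at 238 and 191 CPM, Klrb1b at 231 and 168 CPM and Clec2d at 155 and 170 CPM. In C1q-high macrophages Mrc1 had 2344 and 2475 CPM, ahead of Clec4a2 at 378 and 386 CPM, Clec4a1 at 389 and 363 CPM and Clec4a3 at 354 and 377 CPM, and of the 18 measured lectins none was 2-fold higher and 1 lower, against 0.0895% and 0.418% of all genes. That one was Olr1, with 0.744 and 9.46 CPM. It and Clec4e were named after their values had been seen. Mrc1 is itself a marker of the resident gate.

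Clec10a and Mgl2 are known to be raised by interleukin-4 in mouse macrophages, and a list of 20 genes drawn up for interleukin-4 and STAT6 was set beside them. The list includes Stat6 itself, and induction by interleukin-4 was not checked for each gene. In C1q-high macrophages none of 18 measured was 2-fold higher and 1 was lower, Ccl22, a chemokine, at 1.49 and 10.3 CPM, against 0.0895% and 0.418% of all genes. The median log2 ratio was -0.14, against -0.05 over all genes. Retnla, the highest of them, had 4674 and 2795 CPM, Mrc1 2344 and 2475 CPM, Klf4 1643 and 1813 CPM, and Cd163 757 and 777 CPM. In type 2 dendritic cells 1 of 17 was higher and 2 lower, against 0.0197% and 0.296% of all genes, with a median of -0.14, against -0.07. They were Ccl17, a chemokine, at 24.9 and 4.34 CPM, Retnla at 2.49 and 14.5 CPM, and Fn1 at 13.3 and 38.7 CPM. These 4 calls too were named after their values had been seen. Retnla and Fn1 are markers of the Retnla Lpl Fn1 gate, whose cells were kept out of the type 2 dendritic gate. Their low levels in the type 2 dendritic gate therefore follow in part from how the gates were drawn. Mrc1 and Cd163 are likewise markers of the resident gate, from which the C1q-high macrophages were taken.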

How the data were processed

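One droplet library of live CD45+ skin cells per group was deposited as raw counts of UMIs per gene and barcode. Per the file headers, the authors made them in Cell Ranger (version 4.0.0), on mm10 by the submitters' processing notes. Members, lists and rules were chosen with earlier results of these data known. Barcodes with at least 500 UMIs, 200 genes and under 10% mitochondrial UMIs were kept. Doublets were removed with scrublet in scanpy 1.11.5: 473 anti-Gr-1 barcodes at the automatic threshold, and 3055 isotype control barcodes at 0.8% per 1000 barcodes, since the automatic threshold called 32.8%, above the limit of 25%. Mixed cells may therefore remain.

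Gates used raw UMIs of marker genes: 3 or more of 9 resident macrophage or of 12 type 2 dendritic markers, with lymphoid and mast cells left out. Barcodes in 2 gates (314 anti-Gr-1, 706 isotype control) or in none (1392 and 5084) were not used. Those in no gate held 2.69% (Cd209g, anti-Gr-1) to 47.5% (Cd209e, isotype control) of a member's UMIs. Cells with UMIs of both Xist and Y-linked genes, 3.00% of anti-Gr-1 and 7.38% of isotype control cells, entered no split by sex. Clusters (Leiden, resolution 1.5, 2000 variable genes without the members, 30 components) were named by the same markers, under a rule set after they were seen, and may differ from names of the study. Levels have exact Poisson intervals, shares Clopper-Pearson intervals and ratios exact conditional intervals, at 95%, for counting error only. Depth limits what can be seen: 1 UMI in the type 2 dendritic gate is 0.226 CPM in the anti-Gr-1 library. Named genes were the 8 members, the 5 most similar genes of each, and up to 4 per list with the highest CPM. Alternatives were kept doublets, stricter gates, thinned cells, shared barcodes left out, equal cell weights, T cell level subtracted, median scaling, each sex, clusters in place of gates, no filter on barcodes, and, added after the data were seen, 2 divisions of gates, clusters with cluster 8 not named, and gates without the mixed clusters 5 and 37. Ratio scripts were tested on simulated data. All steps ran in Python 3.11.15 with numpy 2.4.6, scipy 1.17.1, pandas 2.3.3, biopython and matplotlib.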

Additional observations from a re-analysis of the deposited data

Results flagged for a closer look

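Both libraries held cells of both sexes, and in 2 cases the ratio of anti-Gr-1 over isotype control lay on opposite sides of 1 in female and male cells, with both counting intervals off 1. Cd209d in the Retnla Lpl Fn1 phagocyte gate had a ratio of 0.878 (0.812 to 0.947) in female cells and 1.05 (1.004 to 1.099) in male cells. Cd209e in the type 2 dendritic gate had a ratio of 1.18 (1.07 to 1.29) in female cells and 0.880 (0.816 to 0.949) in male cells. Neither difference between the sexes was tested.

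Clec10a gave a signal in cells outside the phagocyte gates. In mast cells it stood at 768 CPM in the anti-Gr-1 library and 657 CPM in the isotype control library, above the 13.3 and 29.1 CPM of T cells.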

How the results depend on the processing

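Which genes marked a gate depended on how the gates were drawn. For the type 2 dendritic gate the count, 1 in the anti-Gr-1 and 0 in the isotype control library, became 4 and 5 with 1 more marker required, 6 and 5 with cells thinned to 2000 UMIs, 5 and 5 with clusters, 4 and 4 with clusters when cluster 8 was not named, and 4 and 4 with C1q-high resident cells only. It became 0 in male anti-Gr-1 cells, and in the isotype control library 2 with equal weight per cell, 1 after subtracting the T cell level, 2 in female cells and 5 with low-H2-Ab1 non-classical cells only. For the resident gate, 2 and 2 became 4 and 4 with stricter gates and with clusters when cluster 8 was not named, 5 and 5 when thinned, and 4 and 5 with low-H2-Ab1 non-classical cells only. For the Retnla Lpl Fn1 gate, 1 in the anti-Gr-1 library became 5 when thinned, 0 in female and in male cells, 3 with clusters, with cluster 8 named or not, and 3 with C1q-high cells only. There, 0 in the isotype control library became 4 when thinned, 4 with C1q-high cells only, 2 with low-H2-Ab1 cells only, and 1 with stricter gates, without shared barcodes, with equal weights, after subtraction, and in female and in male cells. No member was 2-fold higher in the resident gate, but 1 was when thinned and 2 in female cells. None was lower, but 1 was with clusters, with cluster 8 named or not, and 2 with C1q-high cells only. In the type 2 gate 1 was higher in male cells. Over the highest other gate, Cd209b in the Retnla Lpl Fn1 gate of the isotype control library reversed, with log2 ratios of -0.14 with stricter gates, -0.69 when thinned and -0.36 with clusters, each time below type 2 dendritic cells, and -0.054 with clusters when cluster 8 was not named. In that last setting Cd209b in type 2 dendritic cells of the anti-Gr-1 library reversed too, at -1.75. Leaving out cluster 8 lowers that level by construction, as stated above. The cause of the other reversals was not tested. Of 180 counts under alternatives, 136 stayed within 1.5 times. Of 300 single library ratios, 211 stayed within the counting interval of the value reported and 48 turned sign. Of 240 ratios over the highest other gate, 138 stayed, 97 moved and 5 reversed. The C1q-high and low-H2-Ab1 divisions and the settings on clusters 5, 8 and 37 were chosen after seeing the data. No paired analysis was possible because each group is 1 library. Depth, lower in the isotype control library, limits the detection of Cd209f, with 515 and 818 UMIs over all kept cells, and of Cd209g, with 223 and 251.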
